A study of Mus musculus with 7 samples.

Results

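The organic ion carriers and ABC drug transporters of the liver were followed at the mRNA level in TgLC mice, which overexpress leukemia inhibitory factor (LIF), against TgL mice. The members were taken by symbol, as every gene of the Slco, Slc10a, Slc22a and Slc47a families of solute carriers and of the Abca, Abcb, Abcc and Abcg families of ABC transporters. They came to 70 of the 23594 genes in the table. Of these, 33 belong to the uptake families (9 Slco, 6 Slc10a and 18 Slc22a genes) and 37 to the efflux families (1 Slc47a, 12 Abca, 9 Abcb, 9 Abcc and 6 Abcg genes). In 58 members, 26 of uptake and 32 of efflux, the mean of the 7 mice reached 10 normalized counts, and these were tested. The family name places a gene in uptake or efflux and does not show the direction of transport of each member.

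Total RNA was extracted from the livers of 4 TgLC and 3 TgL mice, and poly-A RNA was sequenced in bulk. TgLC mice carry the mouse Lif gene, knocked into the Rosa26 locus behind a CAG promoter and a transcriptional STOP cassette, together with R26-CreERT2, a Cre that is expressed in all tissues and becomes active with tamoxifen (TAM). TgL mice carry the same Lif cassette without Cre, and mice of both genotypes received TAM once by intraperitoneal injection at 8 weeks of age (32 µg/g body weight in females and 64 µg/g in males). LIF was thus induced in the whole animal and not in the liver alone, CreERT2 was present only in TgLC mice, and no mice without TAM were included. No source used here gives the sex of each mouse or the time from TAM to liver collection.

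The values are reads per gene divided by 1 size factor per mouse, called normalized counts below. The 4 TgLC libraries held 11325974 to 12448961 reads in genes and the 3 TgL libraries 9367681 to 11030699. Lif itself stood at 10, 12.3, 10.1 and 25 normalized counts in TgLC livers, against 0.894, 1.99 and 0 in TgL livers, so each TgLC liver was above each TgL liver. Xist was at 3521 or more in each mouse and the 4 Y-linked genes looked at summed to at most 22.4, so no liver showed the pattern of a male. Hepatocyte markers were abundant in every liver, with 2 of 7 genes higher and 2 lower in TgLC and sums of 769081 to 872084 in TgLC against 1.18e+06 to 1.24e+06 in TgL livers. All 3 neutrophil markers tested were higher in TgLC and all 9 exocrine pancreas genes tested were lower, a list that summed to 39.0 to 53.6 normalized counts in TgLC and 683 to 1065 in TgL livers. The part of other cells in the transporter results was not tested. The titles put TgLC mice 1 and 2 and TgL mice 1 and 2 in one number series, and TgLC mice 3 and 4 and TgL mouse 3 outside it. Mouse numbers only name the mice here.

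Hepatocytes take up bile acids, steroid conjugates, drugs and organic ions from the blood through carriers of the basolateral membrane, chiefly the sodium-dependent bile acid carrier NTCP (Slc10a1), the organic anion transporting polypeptides (OATPs, Slco genes) and the organic cation and anion transporters of the Slc22a family. They release bile acids, phospholipid, sterol and conjugates into bile through ABC pumps of the canalicular membrane, and the flow of bile depends on this export. Other multidrug resistance proteins (MRPs) return solutes to the blood, and the A subfamily moves lipids. Inflammatory cytokines are known to lower several of these transporters in rodent liver.

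Of the 58 members tested, 8 were higher and 24 were lower in TgLC livers at an adjusted p under 0.05 (limma on log2(normalized count + 1), Benjamini-Hochberg over all 13145 genes tested), and 26 did not pass. Over all genes tested, 31.2% passed, 16.2% higher and 15.0% lower. Among the 26 uptake genes, 4 were higher and 12 lower, which is 15.4% and 46.2%. Among the 32 efflux genes, 4 were higher and 12 lower, which is 12.5% and 37.5%. The share lower was thus above that of all genes on both sides, and the share higher was close to it. The median log2 fold change was -0.62 over the uptake genes and -0.25 over the efflux genes, against 0.00184 over all genes tested. A change of at least 2-fold was reached by 2 higher and 9 lower uptake genes and by 2 higher and 7 lower efflux genes, while 7.53% of all genes were higher and 6.65% lower by that rule. The TgLC livers were all above the TgL livers for 10 members and all below for 26 (41.1% of all genes did not overlap, 21.1% above and 19.9% below).

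The count of 4 efflux genes that were higher came to 1 without TgL mouse 1, TgL mouse 3 or TgLC mouse 2, and to 2 without TgL mouse 2 or TgLC mouse 1. Leaving out 1 mouse at a time gave 8 to 13 lower and 3 to 4 higher uptake genes and 10 to 13 lower efflux genes. Scaled to library totals in edgeR in place of size factors, the all-gene median shifted by -0.30 (log2) and the split became 5 higher and 30 lower, so that 14.3% of the calls were higher in place of 25%. In bulk RNA, fewer cells of a type and less RNA per cell cannot be told apart.

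**Figure D1:**
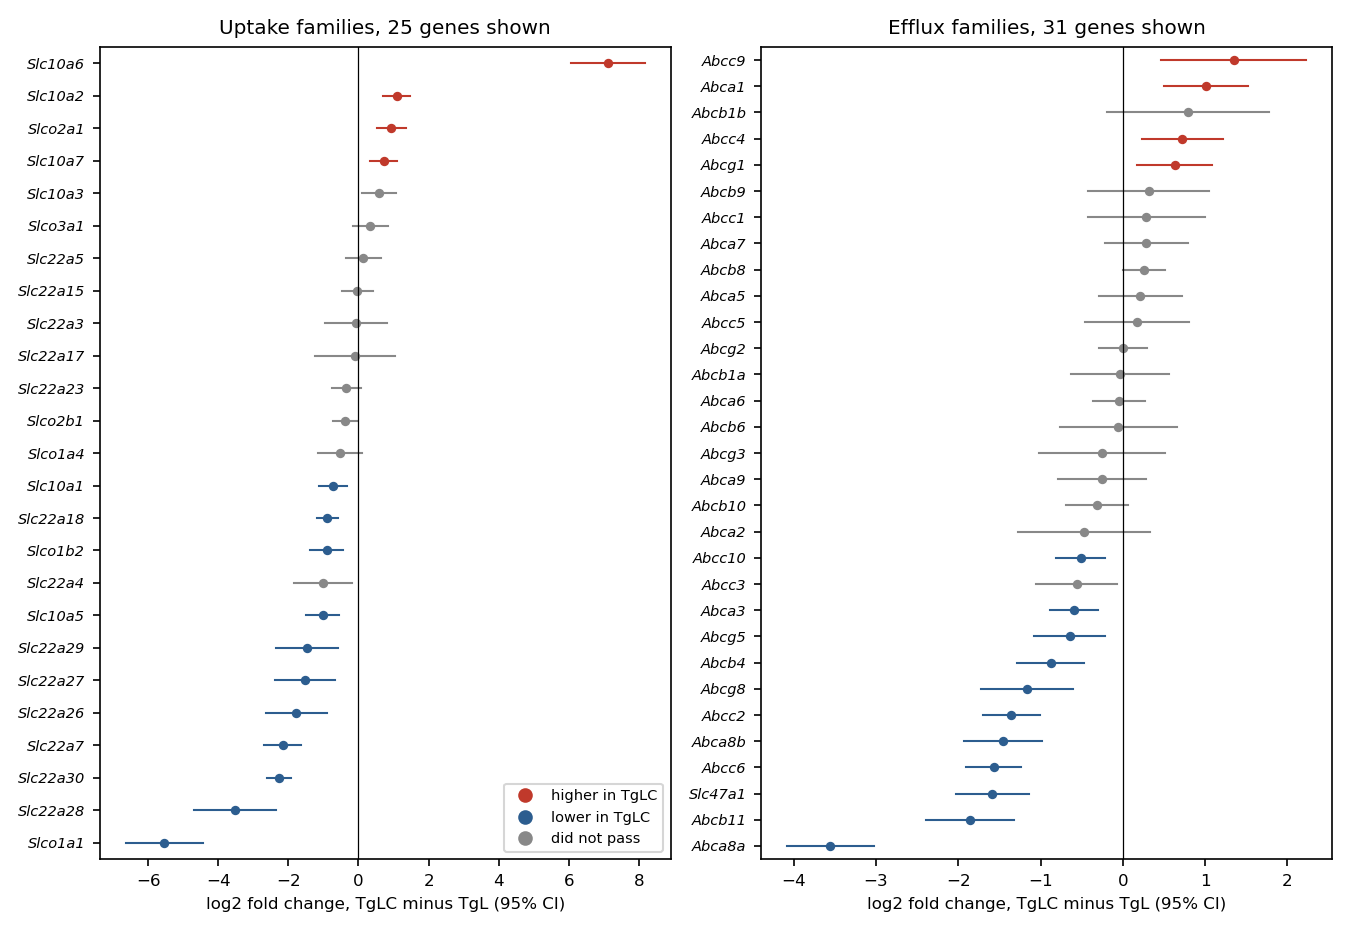
Log2 fold change (TgLC minus TgL) of the transporters shown, with its 95% confidence interval from limma, for 25 uptake genes (left) and 31 efflux genes (right), sorted by size. Red marks genes higher and blue genes lower in TgLC at an adjusted p under 0.05 and grey genes that did not pass: Slc10a6 at 7.11 and Slco1a1 at -5.54 stand at the ends.

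The promoters of the members at both ends of this range, and of the main bile acid and organic anion carriers, are shown with the letters TTCNNNGAA, the palindrome bound by STAT factors, in capitals. STAT3 acts downstream of the LIF receptor. The windows run from 250 bases before to 50 after each annotated start (RefSeq, GRCm38.p6) and read 5′ to 3′ on the strand of the gene. Those of Slc10a6 (chr5:103629354-103629653, minus strand), Slco1a1 (chr6:141946913-141947212, minus strand), Slc10a1 (chr12:80968656-80968955, minus strand, the first of 2 annotated starts) and Slco1b2 (chr6:141629268-141629567, plus strand) were the following.
Slc10a6: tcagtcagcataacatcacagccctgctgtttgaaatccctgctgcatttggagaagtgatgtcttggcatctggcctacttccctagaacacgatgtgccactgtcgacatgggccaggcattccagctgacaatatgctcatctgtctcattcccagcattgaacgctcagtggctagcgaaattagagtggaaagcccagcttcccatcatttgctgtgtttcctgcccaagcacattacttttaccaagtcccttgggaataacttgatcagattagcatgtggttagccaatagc
Slco1a1: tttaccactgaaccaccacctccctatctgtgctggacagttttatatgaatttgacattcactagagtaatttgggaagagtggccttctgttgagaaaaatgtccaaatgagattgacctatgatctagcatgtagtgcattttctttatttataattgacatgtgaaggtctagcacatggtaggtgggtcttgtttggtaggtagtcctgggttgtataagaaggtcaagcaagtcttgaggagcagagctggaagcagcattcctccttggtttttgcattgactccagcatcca
Slc10a1: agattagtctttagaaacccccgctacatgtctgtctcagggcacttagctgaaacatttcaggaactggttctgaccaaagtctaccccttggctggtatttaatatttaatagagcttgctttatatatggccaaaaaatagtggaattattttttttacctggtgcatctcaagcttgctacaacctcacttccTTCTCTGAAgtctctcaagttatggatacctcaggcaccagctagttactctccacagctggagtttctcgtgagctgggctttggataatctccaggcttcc
Slco1b2: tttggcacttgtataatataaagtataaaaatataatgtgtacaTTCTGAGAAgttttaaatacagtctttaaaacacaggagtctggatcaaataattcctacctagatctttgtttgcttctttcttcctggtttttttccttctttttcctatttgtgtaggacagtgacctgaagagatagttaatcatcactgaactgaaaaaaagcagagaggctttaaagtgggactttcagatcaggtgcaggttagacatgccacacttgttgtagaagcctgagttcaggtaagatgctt
The palindrome began at -53 from the start in Slc10a1 and at -206 in Slco1b2, and its letters were not in the windows of Slc10a6, Slco1a1 or the second start of Slc10a1.

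Of the 70 members, 54 had at least 1 window, 63 windows in all. The palindrome, searched on both strands (it reads alike on each), was in 8 of the 63 windows (12.7%), and in 8.30% of all 32851 windows of the same length. By member it was in 1 of 7 that were higher (Abcc4), 3 of 18 that were lower (Slc10a1, Slco1b2 and Slc22a26) and 3 of 20 that did not pass (Abcc5, Slc22a15 and Slco2b1). These shares are near each other, and a match of letters is not a binding site. Neither CAAAGTCCA, an HNF4 site found in 0.475% of all windows, nor the full palindromic HNF1 site, found in 0.00913%, was in a window of a member. Exact matches this rare could be missing from 63 windows in any case. Their absence thus does not show that these promoters lack HNF4 or HNF1 sites.

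Of the 6 OATP genes tested, 2 were lower, 1 was higher and 3 did not pass (15.0% of all genes were lower and 16.2% higher). Slco1a1, which carries bile acids, steroid conjugates and other organic anions in rodent liver, had 164, 62.4, 36.4 and 35.1 normalized counts in TgLC livers, against 2712, 3955 and 2163 in TgL livers. All 4 TgLC livers were below the lowest TgL liver, and TgLC mouse 1 was the highest of them. The means were 39.5-fold apart (log2 fold change -5.54 ± 0.49 (SE), adjusted p = 6.97e-05), or 65.9-fold apart without TgLC mouse 1. This was the strongest fall of the 58 members.

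Slco1b2, the main OATP of mouse hepatocytes and the counterpart of the human OATP1B proteins, had 5788, 5797, 9221 and 5201 normalized counts in TgLC livers, against 14033, 11589.9 and 10278 in TgL livers. The groups did not overlap, but TgLC mouse 3, at 9221, was close to the lowest TgL liver at 10278 (log2 fold change -0.91 ± 0.21 (SE), adjusted p = 0.011). The call was lost without TgL mouse 1 (adjusted p = 0.0545), and over the 20 alternatives its adjusted p ran over 0.000527 to 0.417. Slco2a1, the prostaglandin transporter, was higher, with 1848, 2546, 1987 and 3155 normalized counts in TgLC livers, against 1184, 1200.4 and 1276 in TgL livers (log2 fold change 0.93 ± 0.18 (SE), adjusted p = 0.00473). The lowest TgLC liver was above the highest TgL liver.

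Slco1a4, a carrier of organic anions and digoxin in rodents, had 1099, 1469, 807 and 1085 normalized counts in TgLC livers, against 2073, 1922 and 984 in TgL livers, and the groups overlapped through TgL mouse 3 (log2 fold change -0.53 ± 0.28 (SE), adjusted p = 0.178). It passed without TgL mouse 3 (adjusted p = 0.0249), within a range of 0.0121 to 0.861 over the alternatives. Slco2b1, a broad OATP, had 1208, 1172, 1719 and 1174 normalized counts in TgLC livers, against 1699.9, 1664 and 1713 in TgL livers, with TgLC mouse 3 above all TgL livers and the other TgLC livers below them (log2 fold change -0.38 ± 0.15 (SE), adjusted p = 0.0845). It passed without TgLC mouse 3 (adjusted p = 0.00447), and its adjusted p ran over 0.00356 to 0.561. Slco3a1 did not pass, and Slco1c1, Slco4a1 and Slco4c1 had means under 10.

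The bile acid carrier family divided, with 3 of its 6 genes higher and 2 lower (16.2% and 15.0% of all genes). Slc10a6, the carrier of sulfated steroids known as SOAT, was close to absent from TgL livers and plain in TgLC livers, at 695, 545, 354 and 566 normalized counts in TgLC livers, against 8.05, 1.99 and 1.02 in TgL livers. The 3 TgL values stand for 12 reads in all and the 4 TgLC values for 2142. The ratio of the means was 146-fold, and 359-fold without TgL mouse 1, so its size is known only roughly, while the rise itself held in each mouse (log2 fold change 7.11 ± 0.46 (SE), adjusted p = 1.41e-05).

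Slc10a2, the apical bile acid carrier ASBT of ileum and bile ducts, had 953, 889.5, 746 and 708 normalized counts in TgLC livers, against 300.5, 452 and 416 in TgL livers (log2 fold change 1.09 ± 0.17 (SE), adjusted p = 0.00164). The groups did not overlap and the means were 2.12-fold apart. Among 4 cholangiocyte markers tested, Sox9 was higher in TgLC, at 452, 454, 358 and 647 against 44.7, 21.9 and 25.5 in TgL, while Krt19 (-1.42), Epcam (-1.10) and Spp1 (1.15) did not pass. The part of these cells in the level of Slc10a2 was not tested. Slc10a7, an orphan member of the family, averaged 143 ± 19.9 normalized counts in TgLC livers (SD, n = 4) and 86.6 ± 12.3 in TgL livers (SD, n = 3) (log2 fold change 0.72 ± 0.17 (SE), adjusted p = 0.0111). Its call was lost without TgL mouse 1 (adjusted p = 0.0574), within a range of 0.00551 to 0.285.

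Slc10a1 (NTCP), the main bile acid uptake carrier of hepatocytes, was lower, with 3435, 4176, 5877 and 4174 normalized counts in TgLC livers, against 7415, 7226 and 6725 in TgL livers (log2 fold change -0.72 ± 0.18 (SE), adjusted p = 0.0142). TgLC mouse 3 was the highest of its group here as well, and the groups did not overlap. The call was lost without TgL mouse 1 (adjusted p = 0.0586) or without TgL mouse 2 (adjusted p = 0.0547), and over the alternatives its adjusted p was 0.00102 to 0.371. The orphan Slc10a5 had 544, 401, 423 and 271 normalized counts in TgLC livers, against 858, 739.5 and 827 in TgL livers (log2 fold change -1.02 ± 0.21 (SE), adjusted p = 0.00626), again without overlap. Slc10a3 (log2 fold change 0.58, adjusted p = 0.0706) did not pass, though its groups did not overlap, and part of its exons (12.8%) overlaps those of Ubl4a.

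The Slc22a family fell broadly. Of its 14 genes tested, 8 were lower (15.0% of all genes) and the other 6 did not pass. The median log2 fold change was -1.05. Slc22a7 (OAT2), an organic anion carrier, had 68, 62.4, 99.2 and 48.1 normalized counts in TgLC livers, against 294, 356 and 264 in TgL livers (log2 fold change -2.16 ± 0.23 (SE), adjusted p = 0.000223), and its means were 4.39-fold apart.

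Slc22a26 to Slc22a30, a group of rodent organic anion transporter genes, were all lower, each by at least 2-fold. Slc22a30 was the clearest, with 399, 413, 434 and 287 normalized counts in TgLC livers, against 1890.4, 1847 and 1774 in TgL livers (log2 fold change -2.28 ± 0.15 (SE), adjusted p = 1.58e-05). Slc22a26, the most abundant of them, had 473, 1046, 1143 and 351 normalized counts in TgLC livers, against 2185, 1984 and 2724 in TgL livers (log2 fold change -1.77 ± 0.39 (SE), adjusted p = 0.00877). TgLC mice 2 and 3 were more than 2-fold above TgLC mice 1 and 4 in this gene, so the TgLC group was spread widely and still did not reach the TgL range. Slc22a27 showed the same spread among TgLC mice, at 77, 169, 232 and 82.1 normalized counts in TgLC livers, against 309, 329 and 465 in TgL livers (log2 fold change -1.52 ± 0.38 (SE), adjusted p = 0.0146), and its call was lost without TgL mouse 3 (adjusted p = 0.0608) (range 0.00118 to 0.183).

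Slc22a28 and Slc22a29 were low genes. Slc22a28 had 5, 1.02, 2.02 and 1 normalized counts in TgLC livers, against 31.3, 41.8 and 26.5 in TgL livers, which is 9 reads in all against 103 (log2 fold change -3.52 ± 0.51 (SE), adjusted p = 0.00111). The means were 14.7-fold apart, or 24.6-fold apart without TgLC mouse 1, so the size of this fall rests on a few reads. Slc22a29 averaged 11.4 ± 4.24 normalized counts in TgLC livers (SD, n = 4) and 32.8 ± 11.1 in TgL livers (SD, n = 3) (log2 fold change -1.47 ± 0.39 (SE), adjusted p = 0.0214), and its call was lost without TgL mouse 1 (adjusted p = 0.101) or without TgL mouse 3 (adjusted p = 0.0701) (range 0.00529 to 0.188). These paralogs share sequence. Of the 50-base stretches of Slc22a28, 53.9% are also in other genes, mainly Slc22a30, and of those of Slc22a27, 29.9%, mainly in Slc22a29. Reads may thus have been divided between the paralogs, and the 5 genes are not 5 separate measurements.

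Slc22a18, an orphan carrier, had 446, 446, 604 and 469.8 normalized counts in TgLC livers, against 980.1, 869.9 and 862 in TgL livers (log2 fold change -0.89 ± 0.14 (SE), adjusted p = 0.00148). TgLC mouse 3 was again the highest TgLC liver, well below the TgL livers. Slc22a5 (OCTN2), the carnitine carrier, had 323, 259, 295 and 269 normalized counts in TgLC livers, against 364, 266 and 180.5 in TgL livers (log2 fold change 0.14 ± 0.22 (SE), adjusted p = 0.66), and the TgLC values lay within the wider TgL range. The 95% interval of its log2 fold change, -0.35 to 0.63, leaves room for a change in either direction. It shares 26.3% of its 50-base stretches with other genes, mainly Slc22a21, which had a mean of 7.36. Slc22a4, a carrier of ergothioneine, did not overlap and did not pass, at 8, 15.4, 14.2 and 18 normalized counts in TgLC livers, against 34, 34.8 and 18.4 in TgL livers (adjusted p = 0.0634).

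**Figure D2:**
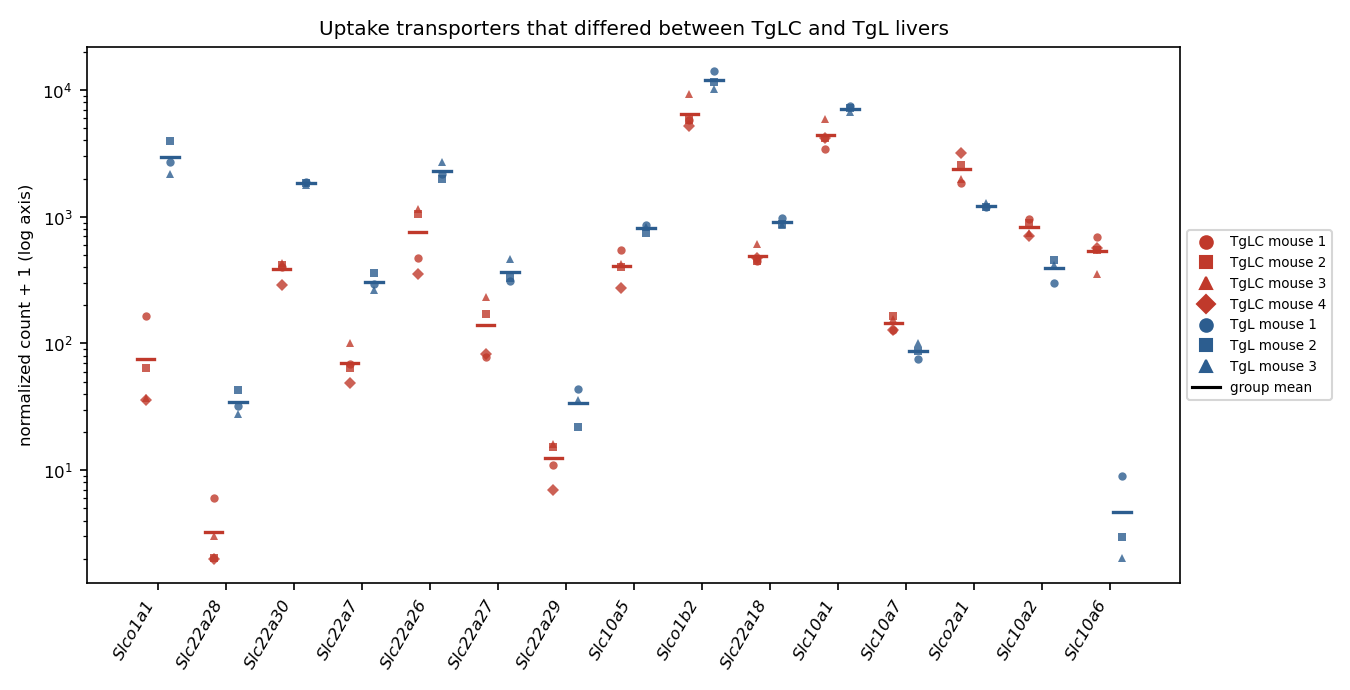
Normalized counts (plus 1, log axis) of 15 uptake genes that differed, sorted from the strongest fall to the strongest rise, with 1 symbol per mouse, TgLC in red on the left and TgL in blue on the right of each gene, and a bar at each group mean. For Slco1a1 the TgLC livers lie between 35.1 and 164 and the TgL livers between 2163 and 3955, and for Slc10a6 the order is the opposite.

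Of the 9 efflux genes read as canalicular, 6 were lower and 3 did not pass, with a median log2 fold change of -0.88. Of all genes tested, 15.0% were lower. Abcb11 (BSEP), the bile salt export pump, had 3034, 2629.7, 3803 and 1720.1 normalized counts in TgLC livers, against 10402, 9367 and 9423 in TgL livers. The highest TgLC liver was far below the lowest TgL liver, and the means were 3.48-fold apart (log2 fold change -1.85 ± 0.24 (SE), adjusted p = 0.000522). Abcc2 (MRP2), which exports bilirubin glucuronide and other conjugates, had 2971, 2990.1, 2293 and 3387 normalized counts in TgLC livers, against 7773, 7959.8 and 6510.3 in TgL livers (log2 fold change -1.36 ± 0.15 (SE), adjusted p = 0.00028). The groups did not overlap, and TgLC mouse 3 was here the lowest TgLC liver.

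Slc47a1 (MATE1), which extrudes organic cations and is the one Slc47a gene with values, had 458, 522, 735 and 395 normalized counts in TgLC livers, against 1722, 1456 and 1460.1 in TgL livers (log2 fold change -1.58 ± 0.20 (SE), adjusted p = 0.000476). The highest TgLC liver was below the lowest TgL liver. Abcb4, the phospholipid floppase of the canaliculus, had 1178, 1179, 1453 and 1433 normalized counts in TgLC livers, against 3038, 2505 and 1809.8 in TgL livers (log2 fold change -0.88 ± 0.18 (SE), adjusted p = 0.00622). TgL mouse 3 was the lowest TgL liver, and the groups did not overlap.

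Abcg5 and Abcg8, whose products form 1 sterol export pump, were both lower. Abcg8 had 506, 328, 476 and 674 normalized counts in TgLC livers, against 1193, 1305 and 802 in TgL livers (log2 fold change -1.16 ± 0.25 (SE), adjusted p = 0.0076), and Abcg5 had 738, 464, 600.0 and 759 normalized counts in TgLC livers, against 1043, 1119 and 819 in TgL livers (log2 fold change -0.65 ± 0.19 (SE), adjusted p = 0.031). TgL mouse 3 was the lowest of its group in both genes and TgLC mouse 4 the highest of its own. The call for Abcg5 was lost without TgLC mouse 2 (adjusted p = 0.0527), without TgLC mouse 3 (adjusted p = 0.0543), without TgL mouse 1 (adjusted p = 0.108) or without TgL mouse 2 (adjusted p = 0.12), within a range of 0.00333 to 0.43. The exons of this pair overlap on opposite strands over 82 bases, and no source used here gives the strand setting of the counting.

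The canalicular genes Abcb1a, Abcb1b and Abcg2 did not pass. Abcb1a, a P-glycoprotein gene, had 65, 72.7, 92.1 and 112 normalized counts in TgLC livers, against 101, 106 and 58.1 in TgL livers (log2 fold change -0.03 ± 0.26 (SE), adjusted p = 0.947), and the groups overlapped. In the 4 mice of the one label series it was lower (-0.58, adjusted p = 0.032), and outside it the value was 0.80 (0.172), so its direction differed between the sets of mice (range over all alternatives 0.032 to 0.952). Abcb1b, its paralog, averaged 18.9 ± 8.12 normalized counts in TgLC livers (SD, n = 4) and 9.77 ± 2.27 in TgL livers (SD, n = 3) (log2 fold change 0.80 ± 0.44 (SE), adjusted p = 0.197) and passed without TgLC mouse 3 (adjusted p = 0.0348) (range 0.0348 to 0.863). Of the 50-base stretches of Abcb1a, 17.6% are also in other genes, mainly Abcb1b, and of those of Abcb1b, 11.6%, mainly in Abcb1a. Reads may thus have been divided between the pair. Abcg2, which exports sulfate conjugates and urate, had 387, 436, 442 and 389 normalized counts in TgLC livers, against 374, 388 and 481 in TgL livers (log2 fold change 0.00 ± 0.13 (SE), adjusted p = 0.988), with a 95% interval of -0.29 to 0.29. That interval excludes a 2-fold change in either direction.

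The MRPs that face the blood did not move together. Abcc6, whose loss causes ectopic mineralization in mice and humans, had 898, 933, 1087 and 722 normalized counts in TgLC livers, against 2849.9, 2756 and 2442 in TgL livers (log2 fold change -1.57 ± 0.15 (SE), adjusted p = 9.95e-05), a fall without overlap. Abcc4 (MRP4), an exporter of bile acids and cyclic nucleotides, was higher at a low level, with 68, 72.7, 68.8 and 51.1 normalized counts in TgLC livers, against 30.4, 47.8 and 39.8 in TgL livers (log2 fold change 0.72 ± 0.22 (SE), adjusted p = 0.0322). Its call was lost without TgLC mouse 1 (adjusted p = 0.062), without TgLC mouse 2 (adjusted p = 0.0748), without TgLC mouse 3 (adjusted p = 0.0589), without TgL mouse 1 (adjusted p = 0.132) or without TgL mouse 3 (adjusted p = 0.0729), and over the alternatives its adjusted p was 0.0248 to 0.36. Abcc3 (MRP3), which exports glucuronides and bile acids, had 1998, 1881, 2329 and 3503 normalized counts in TgLC livers, against 3961, 3596 and 2946 in TgL livers (log2 fold change -0.56 ± 0.22 (SE), adjusted p = 0.0775). TgLC mouse 4 was inside the TgL range, and the gene passed without TgLC mouse 4 (adjusted p = 0.00901) (range 0.000374 to 0.934). Abcc1 and Abcc5 did not pass, so that 1 of these 5 genes was higher and 1 lower (16.2% and 15.0% of all genes).

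Abcc9, the SUR2 subunit of ATP-sensitive potassium channels and not a pump, was higher, with 1639, 1264, 464 and 618 normalized counts in TgLC livers, against 360.4, 364 and 311 in TgL livers. TgLC mice 1 and 2 were more than 2-fold above TgLC mice 3 and 4, which were themselves above each TgL liver (log2 fold change 1.35 ± 0.39 (SE), adjusted p = 0.0281). The call was lost without TgLC mouse 2 (adjusted p = 0.0632), without TgL mouse 1 (adjusted p = 0.0766), without TgL mouse 2 (adjusted p = 0.0753) or without TgL mouse 3 (adjusted p = 0.0876), within a range of 9.73e-05 to 0.134. Abcc9 is known from pericytes and smooth muscle. The summed level of 5 stellate cell markers was 691 to 2585 in TgLC and 1068 to 1562 in TgL livers, with none at 0. Over all mice, Des alone of the 5 was higher by the test. Within the one label series, Lrat (log2 fold change 1.36), Des (1.10), Pdgfrb (1.22) and Col1a1 (2.59) were higher and Reln (-0.29) did not pass. Outside it the values were -0.39, 0.51, 0.02, 0.45 and -1.95 in that order. The part of stellate cells and pericytes in the level of Abcc9 was not tested. Abcc10 (MRP7) was lower, at 108, 124, 109 and 99.2 normalized counts in TgLC livers, against 159, 154 and 158 in TgL livers (log2 fold change -0.51 ± 0.13 (SE), adjusted p = 0.0171), with a call that was lost without TgL mouse 1 (adjusted p = 0.0707), without TgL mouse 2 (adjusted p = 0.0563) or without TgL mouse 3 (adjusted p = 0.0508) (range 0.00139 to 0.196).

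Of the 9 Abca genes tested, 3 were lower and 1 was higher (15.0% and 16.2% of all genes). Abca8a, a member of the A subfamily with a role that is not well defined, showed the second strongest fall of the tested members on the log2 scale of the fit, with 175, 146, 235 and 107 normalized counts in TgLC livers, against 1730.3, 2067 and 1873 in TgL livers (log2 fold change -3.56 ± 0.23 (SE), adjusted p = 1.41e-05). The means were 11.4-fold apart. Its neighbour Abca8b shares 1.42% of its 50-base stretches with other genes, mainly Abca8a. Abca8b had 648, 575, 459 and 331 normalized counts in TgLC livers, against 1372, 1304 and 1350.0 in TgL livers (log2 fold change -1.46 ± 0.21 (SE), adjusted p = 0.00102). Abca6 and Abca9, of the same branch of the family, did not pass, and Abca6, picked after its values were seen for its high level, stood at 2923 ± 284 normalized counts in TgLC livers (SD, n = 4) and 3036 ± 457 in TgL livers (SD, n = 3) (95% interval -0.37 to 0.27). Abca3, the phospholipid transporter of lung surfactant organelles, averaged 985 ± 135 normalized counts in TgLC livers (SD, n = 4) and 1476 ± 91 in TgL livers (SD, n = 3) (log2 fold change -0.59 ± 0.13 (SE), adjusted p = 0.00877).

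Abca1, which loads cholesterol and phospholipid onto apolipoprotein A-I, was higher, with 8182, 6514, 4127 and 4707 normalized counts in TgLC livers, against 2637, 2642 and 3209.8 in TgL livers (log2 fold change 1.01 ± 0.23 (SE), adjusted p = 0.00968). TgLC mice 1 and 2 were above TgLC mice 3 and 4, and all were above the TgL livers. Abcg1, which passes cholesterol to HDL, had 172, 232, 122 and 171 normalized counts in TgLC livers, against 112, 107 and 109 in TgL livers (log2 fold change 0.63 ± 0.20 (SE), adjusted p = 0.0409). It moved in the same direction as Abca1, and its call was the least firm of the 32, passing in 9 of the 20 alternatives (range 0.00702 to 0.428). It was lost without TgLC mouse 1 (adjusted p = 0.0673), without TgLC mouse 2 (adjusted p = 0.0764), without TgLC mouse 4 (adjusted p = 0.0781), without TgL mouse 1 (adjusted p = 0.106), without TgL mouse 2 (adjusted p = 0.115) or without TgL mouse 3 (adjusted p = 0.0993).

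Among the Abcb genes of mitochondria and other organelles, Abcb8 and Abcb10 were without overlap and did not pass, Abcb8 at 316, 355, 362 and 343 normalized counts in TgLC livers, against 271, 311 and 280.4 in TgL livers (adjusted p = 0.113) and Abcb10 at 167, 235, 261 and 242 normalized counts in TgLC livers, against 283, 287 and 264 in TgL livers (adjusted p = 0.178). Abcb6 overlaps another annotated gene on the same strand over 55.2% of its exons, so its value of 18.4 ± 3.91 normalized counts in TgLC livers (SD, n = 4) and 19.4 ± 5.59 in TgL livers (SD, n = 3) may not be its own.

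**Figure D3:**
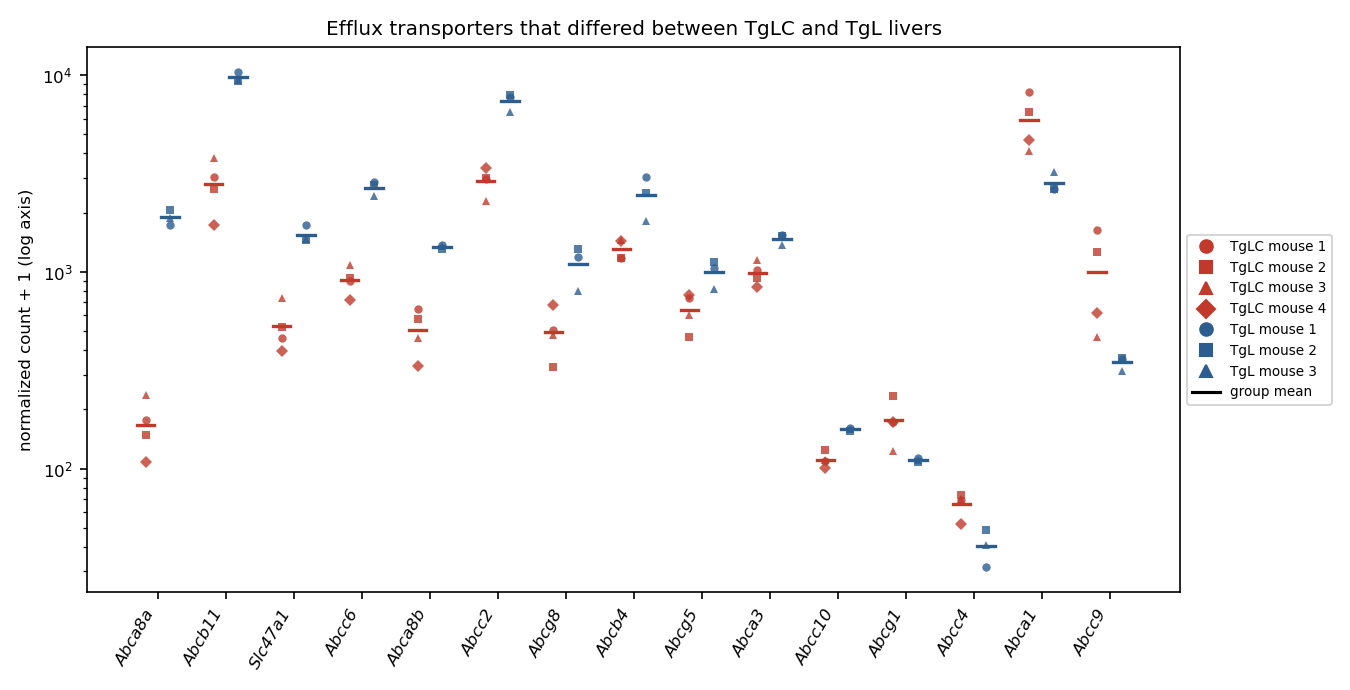
Normalized counts (plus 1, log axis) of 15 efflux genes that differed, sorted from the strongest fall to the strongest rise, with 1 symbol per mouse, TgLC in red on the left and TgL in blue on the right of each gene, and a bar at each group mean. The TgLC livers lie between 107 and 235 and the TgL livers between 1730 and 2067 for Abca8a, while the TgLC mice are spread from 464 to 1639 for Abcc9.

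The 26 tested members that did not pass had log2 fold changes from -1.01 (Slc22a4) to 0.80 (Abcb1b), with adjusted p from 0.0634 to 0.988. In 4 of them the groups did not overlap, namely Slc22a4, Slc10a3, Abcb8 and Abcb10, which were picked for this after their values were seen. The 12 members with a mean under 10 were Abca4, Abca14, Abca17, Abcc12, Abcg4, Slc22a2, Slc22a13b-ps, Slc22a14, Slc22a21, Slco1c1, Slco4a1 and Slco4c1, and the highest of these means were 7.36 for Slc22a21 and 5.58 for Slco4a1. In 3 tested members, Slc10a6, Slc22a28 and Abcb1b, the mean of 1 group was under 10, so they entered the test through the other group.

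Levels were compared between genes per kilobase of exon. The uptake members summed to 6391 ± 1318 normalized counts per kb in TgLC livers and 11400.4 ± 744 in TgL livers (SD, n = 4 and 3), which is 1.78-fold lower in TgLC. For the efflux members the sums were 4038 ± 215 in TgLC livers and 7265 ± 558 in TgL livers, which is 1.80-fold lower. Slc10a1 stood first in both genotypes, at 2008 ± 471 in TgLC livers and 3239 ± 162 in TgL livers per kb, and Slco1b2 was next, at 1319 ± 372 in TgLC livers and 2428 ± 387 in TgL livers. Below these the order changed. Abcb11 stood at 543 ± 168 in TgLC livers and 1891 ± 113 in TgL livers, and its rank was 5 in TgLC and 3 in TgL. Abca1, at 568 ± 177 in TgLC livers and 273 ± 31.8 in TgL livers, was at rank 4 in TgLC and 18 in TgL. The spreads of Abca1 and Abcb11 in TgLC livers overlap, so their order there is not settled. Slco1a1 was at rank 42 in TgLC and 9 in TgL, and Slc10a6 at rank 11 in TgLC and 57 in TgL, with 254 ± 66.2 in TgLC livers and 1.74 ± 1.79 in TgL livers per kb.

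**Figure D4:**
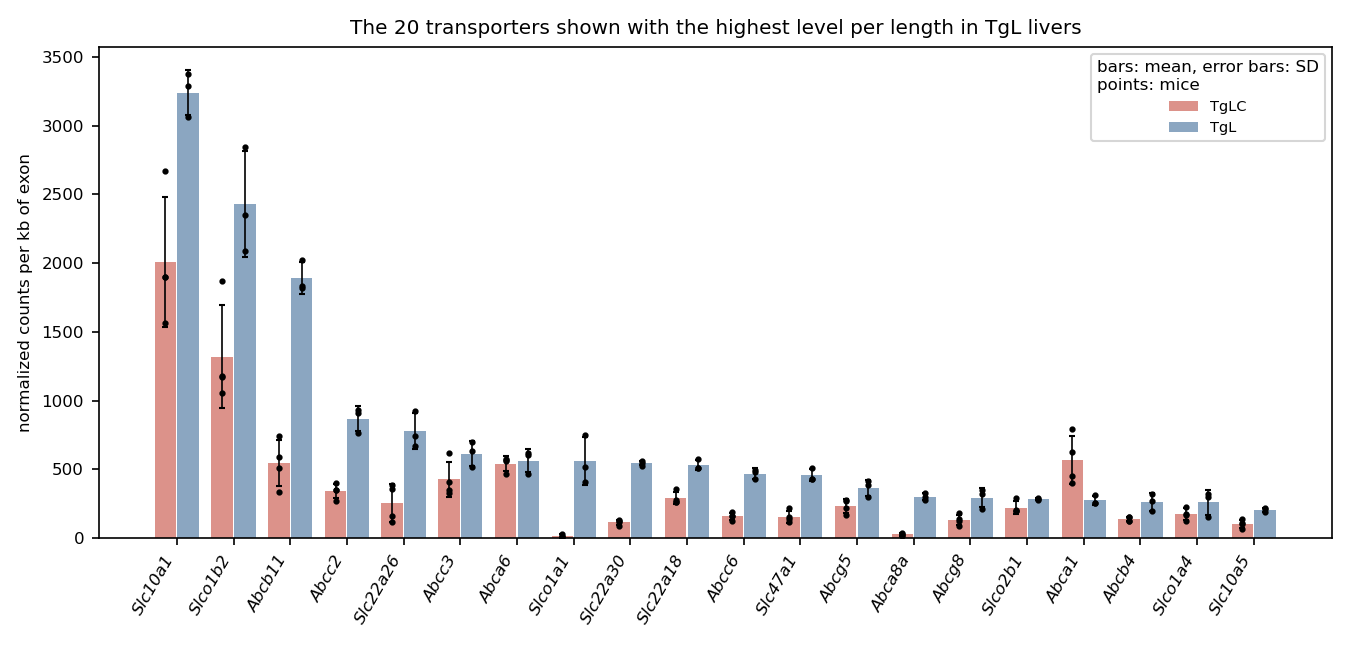
Normalized counts per kilobase of exon for 20 of the transporters with the highest level in TgL livers, in falling order of that level, with TgLC (red) left of TgL (blue). Bars are means, error bars are SD (n = 4 TgLC and 3 TgL) and points are mice: the level of Slco1a1 is 14.1 in TgLC and 558 in TgL livers, and Abca1 is the one gene of the 20 that passed the test with a higher level in TgLC.

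The falls were not equally deep in each TgLC mouse. TgLC mouse 3 was the highest TgLC liver in 16 of the 24 members that were lower (9 of 12 uptake and 7 of 12 efflux genes), and TgLC mouse 4 was the lowest in 16 of 24. The same counts over all lower genes were not made, so these cannot be read as particular to transporters. TgLC mice 3 and 4 belong outside the one label series. In the 4 mice of that series, 10 members were higher and 29 lower by limma (18.8% and 19.8% of all genes), and in the 3 mice outside it 1 was higher and 4 were lower (2.65% and 1.89% of all genes). With 2 TgLC mice and 1 TgL mouse, the fit outside the series assumes that the lone TgL mouse varies like the rest. The log2 fold changes had the same sign in both sets, which share no mouse, for 46 of the 58 members (23 of 26 uptake and 23 of 32 efflux genes). The 58 include the 32 called members, which were picked on all mice together, and for them this favours one sign in both sets. The count is thus no separate support. The same share over all genes was not computed.

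Among the 24 members that were lower, the median log2 fold change was -1.42 within the series and -1.36 outside it. The efflux genes came to -1.31 within and -0.91 outside, and 9 of the 12 had the larger fall within. The values for Abcb4 were -1.23 (adjusted p = 0.000286) and -0.33 (0.246), for Abcg8 -1.61 (0.00102) and -0.50 (0.285), and for Abcb11 -1.80 (6.97e-05) and -1.88 (0.116). The uptake genes came to -1.46 within and -1.74 outside. Among genes that were higher, Abcc9 was at 1.99 within and 0.78 outside, Abca1 at 1.47 and 0.46, and Slc10a6 at 6.89 and 7.80. The differences between the sets of mice were not tested. With the series as a second term beside genotype, over all mice, each of the 32 calls held. No source used here says what the number series stands for.

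**Figure D5:**
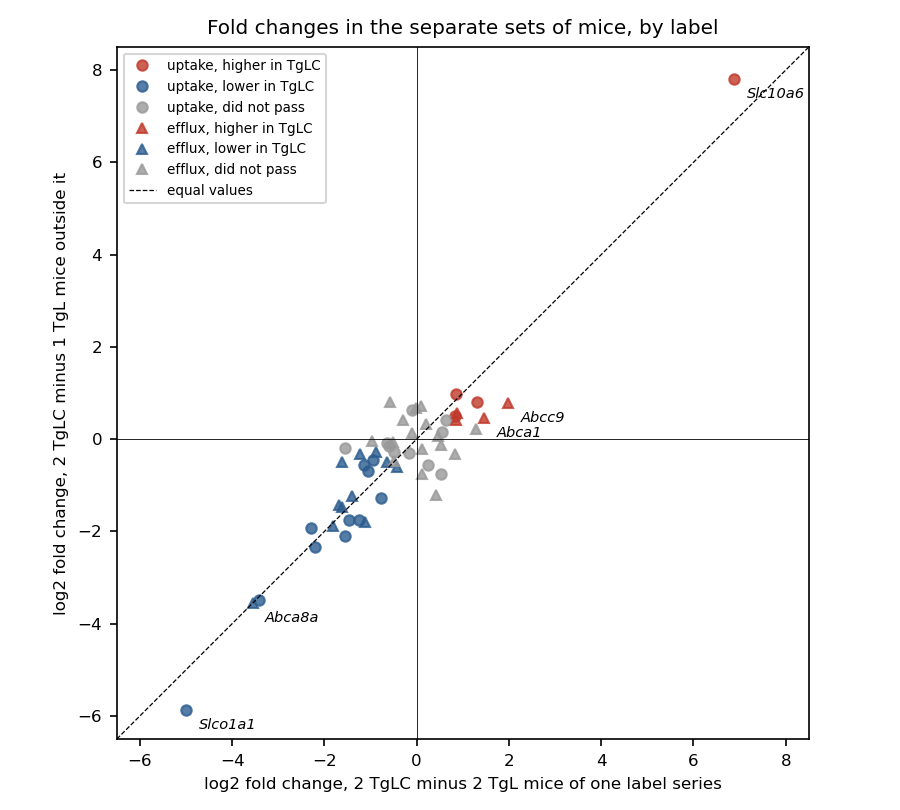
Log2 fold change (TgLC minus TgL) of 56 transporters in the 4 mice of one label series (horizontal axis, 2 TgLC and 2 TgL) and in the 3 mice outside it (vertical axis, 2 TgLC and 1 TgL), with circles for uptake and triangles for efflux genes, red for genes higher and blue for genes lower in TgLC over all mice. Slc10a6 and Slco1a1 lie a little farther from 0 outside the series than within it, while Abcc9 and Abca1 lie nearer to 0 outside it.

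Genes that work with these carriers were looked at from lists of bile acid synthesis, of receptors and of membrane partners. Over all genes tested, 31.2% passed, 16.2% higher and 15.0% lower, and no list was tested against these shares. Of 13 synthesis and conjugation genes tested, 7 were lower and 1 (Acox2) was higher, with a median of -0.55. Cyp7a1, which catalyses the first and limiting step from cholesterol to bile acids, had 43, 47.1, 21.2 and 25 normalized counts in TgLC livers, against 989, 800.3 and 1527 in TgL livers (log2 fold change -5.00 ± 0.32 (SE), adjusted p = 1.22e-05), and Cyp8b1, which sets the share of cholic acid, was lower as well (log2 fold change -5.58 ± 0.62 (SE), adjusted p = 0.000252). The genes for the limiting step of synthesis (Cyp7a1), for uptake (Slc10a1) and for canalicular export (Abcb11) of bile acids were thus each lower. Of 12 receptors and factors, 3 were lower and 1 was higher, with a median of -0.03. Nr1i3 (CAR) had 66, 89.1, 71.8 and 240.4 normalized counts in TgLC livers, against 459, 448 and 297 in TgL livers (log2 fold change -1.96 ± 0.41 (SE), adjusted p = 0.00684), while Nr1h4 (FXR), the bile acid receptor, did not pass (log2 fold change 0.12 ± 0.14 (SE), adjusted p = 0.525). Of 9 membrane partners tested, 3 were higher and 3 were lower. Atp8b1, the lipid flippase that protects the canalicular membrane, was higher (log2 fold change 1.37 ± 0.13 (SE), adjusted p = 9.5e-05), and Rdx (radixin), which anchors MRP2 in that membrane, was lower (log2 fold change -1.08 ± 0.10 (SE), adjusted p = 0.000103). The basolateral bile acid exporter genes Slc51a and Slc51b had means under 10.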

How the data were processed

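Poly-A RNA of 7 livers was sequenced, and the submitters' processing notes name DESeq2 1.20.0, featureCounts 1.5.0-p3, HISAT2 2.0.5 and fastp. No source used here gives the build, annotation or strand setting. The deposited values are a normalized signal, the counts per gene divided by the authors by 1 size factor per mouse. In each mouse 100% of them were whole multiples of 1 read (tolerance 1e-06), which gave the depths and the reads for count tests. Size factors set most genes level, so a change shared by all transcripts cannot be seen.

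Symbols came from a table of gene names (22679 identifiers matched, 915 did not). The family rule matched 92 symbols there, of which 22 had no row and were not analysed here. The 13145 genes whose mean reached 10 normalized counts were tested by limma 3.58.1 (R 4.3.3, intensity trend, empirical Bayes) on log2(normalized count + 1), so fold changes of low genes are understated. Genotype was the only term, and genes with a Benjamini-Hochberg adjusted p under 0.05 over all genes tested are called higher or lower. An exact permutation test of 4 against 3 mice cannot go below p = 0.0571. Pairs of mice of 1 genotype differed beyond sampling noise (chi-square per degree of freedom 9.16 to 48.1). The labels do not say more than that each library is 1 mouse. The limma, edgeR (TMM and size factors), DESeq2 and limma-voom fits were tested on simulated counts for all mice. Changes were put only into genes with a mean of at least 50, and the other settings below were not simulated. Alternatives were edgeR 4.0.16, DESeq2 1.42.0, limma-voom, other scalings, pseudocounts (0.5 and 5) and minimums (none and 50), leaving out each mouse, the mice within and outside the label series, and, chosen after seeing the data, the series as a term.

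Lengths and overlaps are exon unions of GENCODE M21. Named with values are transporters known for the hepatocyte, each member past 2-fold, up to 2 smaller changes per family and genes said to be chosen after their values were seen. The members and lists were chosen with earlier results of these data known. A few genes enter the counts of members and are not reported here by name.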

Additional observations from a re-analysis of the deposited data

Results flagged for a closer look

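For 37 named members the TgLC group of 4 mice was searched for a mouse far from the others (Dixon's ratio of gap to range), a rule that chance passes in about 1 of 20 groups. It picked 3 genes, and TgLC mouse 3 was the high mouse in each. In Slco1b2, the main OATP of mouse hepatocytes, it was at 9221 normalized counts, with the other TgLC livers at 5201 to 5797 and the TgL livers at 14033, 11589.9 and 10278. In Slc22a18 it was at 604, with the others at 446 to 469.8 and the TgL livers at 980.1, 869.9 and 862. In Slco2b1 it was at 1719, above the TgL values of 1699.9, 1664 and 1713, with the other TgLC livers at 1172 to 1208. All 3 are uptake genes, and as the same mouse stands out in each they are not 3 separate signs.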

How the results depend on the processing

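No paired analysis was possible because the labels carry no replicate numbers shared by the groups, and mouse numbers follow accession order. A limma fit with the label series as a term beside genotype, chosen after seeing the data, gave 4 higher and 13 lower uptake genes (Slc22a23 added) and 4 higher and 12 lower efflux genes. Of the 32 members called, 5 (Abca8a, Abca8b, Slc10a6, Slc22a30 and Slco1a1) kept direction and call in all 20 alternatives, and no called member changed direction in any. Leaving out 1 mouse gave 3 to 4 higher and 8 to 13 lower uptake genes, and 1 to 4 higher and 10 to 13 lower efflux genes. The 4 efflux genes that were higher became 2 with edgeR on library totals, 2 with no intensity trend and 2 with no filter on the mean. In the 3 mice outside the label series limma called 1 higher and 2 lower uptake genes, and 0 higher and 2 lower efflux genes (1 higher and 8 lower efflux genes at an unadjusted p under 0.05), from fewer mice. Over all mice the efflux count was 4 higher with edgeR (TMM) and with DESeq2 and 3 with limma-voom. Values near 0 changed sign. Abcb1a (-0.03) ran over -0.301 to 0.123 with 1 mouse left out and was 0.80 outside the series. Abcg2 (0.00) ran over -0.0666 to 0.115 with 1 mouse left out and was -0.32 with library totals, -0.00278 in edgeR with size factors, -0.00251 in DESeq2, -0.0206 with the series as a term and -0.21 outside the series. Slc22a5 (0.14) ran over -0.122 to 0.382 with 1 mouse left out and was -0.23 with library totals and -0.10 within the series. Depth limits the genes with a few reads per liver, such as Slc22a28. Beyond the fewer mice and genes, the cause of these moves was not tested.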
